A study of Mus musculus with 24 samples.

Results

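Il1r1, Il6ra, Tnfrsf1b, Nfkbia, Zfp36 and Icam1 are 6 of the 2372 genes in a deposited table of liver RNA from 24 alcohol-fed mice. The first 3 encode receptors for inflammatory cytokines, and the other 3 are genes that the transcription factor NF-kB switches on. They were taken from the table by gene symbol, as a set chosen with earlier results of these data known; all 6 were found, and all 6 passed a filter on low values of at least 1 FPKM in at least 3 libraries, which kept 2299 genes. FPKM is the number of sequenced fragments of a gene, scaled to its transcript length and to the mapped fragments of the library.

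Every mouse was fed the Lieber-DeCarli alcohol diet for 3 weeks and received a pair of injections of adeno-associated virus (AAV) that expresses short hairpin RNAs, so no value here compares alcohol with its absence. The first injection was AAV-shKdm5b with AAV-shKdm5c, or AAV-shControl, and the second was AAV-shAhR or AAV-shControl. In each sex this gives 4 groups of 3 mice. They received AAV-shKdm5b and AAV-shKdm5c followed by AAV-shAhR (both sets of vectors), AAV-shKdm5b and AAV-shKdm5c followed by AAV-shControl (the Kdm5 vectors), AAV-shControl followed by AAV-shAhR (the AhR vector), or AAV-shControl in both injections (control vectors). Kdm5b and Kdm5c encode histone demethylases, and Ahr encodes the aryl hydrocarbon receptor. The study concerns a role of the KDM5 demethylases in alcohol-associated liver disease that depends on sex. Strain, age, the promoter of the hairpins and the liver cells they reach do not appear in the sources used here. RNA came from whole liver, in which fewer cells of a type and less RNA per cell cannot be told apart.

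Interleukin-1, interleukin-6 and tumour necrosis factor (TNF) are cytokines that Kupffer cells, the resident macrophages of the liver, release when gut-derived products reach them, as happens with alcohol. Interleukin-1 and TNF act through receptors that free NF-kB from its inhibitor I kappa B alpha, the product of Nfkbia, while interleukin-6 acts through JAK kinases and STAT3 and drives the acute phase response of hepatocytes. NF-kB switches on genes that spread inflammation, such as Icam1, and genes that end it: Nfkbia restores the inhibitor, and Zfp36 encodes tristetraprolin, which binds AU-rich elements in cytokine mRNAs and promotes their decay. Glucocorticoids also induce several of these genes in liver.

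The promoters of the 4 members that changed with the vectors in males are shown because they changed in pairs, Il1r1 and Il6ra under the Kdm5 vectors and Nfkbia and Zfp36 where the Kdm5 vectors were added to the AhR vector. Each line gives the 250 bases before an annotated start, 5′ to 3′ on the strand of the gene, from RefSeq for GRCm38.p6, and capitals mark motif matches. Il1r1 has a pair of annotated promoters, of which the one with a match is given. The Il1r1 promoter lies at chr1:40266336-40266585 on the plus strand, that of Il6ra at chr3:89913197-89913446 on the minus strand, that of Nfkbia at chr12:55492648-55492897 on the minus strand and that of Zfp36 at chr7:28379229-28379478 on the minus strand.
Il1r1: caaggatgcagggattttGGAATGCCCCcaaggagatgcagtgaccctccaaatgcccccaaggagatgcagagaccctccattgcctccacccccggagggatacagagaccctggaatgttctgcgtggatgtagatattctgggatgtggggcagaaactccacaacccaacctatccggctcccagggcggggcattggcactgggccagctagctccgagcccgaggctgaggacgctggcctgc
Il6ra: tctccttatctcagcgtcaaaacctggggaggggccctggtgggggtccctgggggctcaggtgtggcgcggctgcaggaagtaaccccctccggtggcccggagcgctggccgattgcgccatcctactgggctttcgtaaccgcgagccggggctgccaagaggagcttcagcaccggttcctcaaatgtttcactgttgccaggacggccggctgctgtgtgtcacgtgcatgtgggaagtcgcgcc
Nfkbia: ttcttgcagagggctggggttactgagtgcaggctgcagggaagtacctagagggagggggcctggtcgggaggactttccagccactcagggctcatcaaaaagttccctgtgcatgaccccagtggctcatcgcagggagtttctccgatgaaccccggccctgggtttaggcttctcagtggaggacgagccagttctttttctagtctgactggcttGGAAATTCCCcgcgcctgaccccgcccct
Zfp36: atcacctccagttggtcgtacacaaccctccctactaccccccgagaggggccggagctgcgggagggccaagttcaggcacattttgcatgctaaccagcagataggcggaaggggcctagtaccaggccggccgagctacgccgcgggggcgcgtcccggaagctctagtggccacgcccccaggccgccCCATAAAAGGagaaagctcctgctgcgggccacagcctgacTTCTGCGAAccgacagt

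Both strands were searched for 4 motifs in windows of 300 bases that run from 250 before to 50 after the start. They were the kappa B consensus GGGRNNYYCC that NF-kB binds, the palindromic glucocorticoid response element, the serum response element and the STAT consensus TTCNNNGAA. In these letters R is A or G, Y is C or T and N is any base. All 6 members had a promoter, 7 in all. Kappa B matches were found in the second promoter of Il1r1, 232 to 223 bases before the start, and in that of Nfkbia, 29 to 20 bases before it, both on the opposite strand. Zfp36 held a serum response element 58 to 49 bases before the start and a STAT match 17 to 9 bases before it. STAT matches also lay 181 to 173 bases before the start of Tnfrsf1b and 42 to 34 bases before that of Icam1. The Icam1 window also held tggaaattcc, which differs from the kappa B consensus in its first letter only and so was not counted. The Nfkbia stretch above held aggactttcc, which differs from it in the same way. Near matches were not counted in any window. No match overlapped another, and the windows of Il6ra and of the first Il1r1 promoter held none of the 4 motifs. Of all 32851 RefSeq promoters, 8.46% held a kappa B match, 8.30% a STAT match, 1.63% a serum response element and 0.222% a glucocorticoid response element. For the 2441 promoters of genes in the deposited table, the shares in the same order were 10.2%, 6.96%, 1.47% and 0.246%. A match describes these letters only.

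Every share of all genes given below refers to the 2299 tested genes of this table, not to a whole transcriptome. How the 2372 genes of the table were chosen does not appear in the sources used here. Adjusted p-values, scaling factors and shares of all genes depend on that choice. In the vector comparisons, other than the AhR vector added to the Kdm5 vectors, 14.4% to 32.8% of them had 3 values in one group clear of the 3 in the other. No such share was counted where a group is set against several others, or where 3 females are set against 3 males with the same vectors. Both are done below for single genes. Read depth is unknown, because the table gives rounded FPKM. A female library held 281871 to 326460 FPKM in total over the 2372 genes, and a male library 380206 to 429780 FPKM. The Y-linked gene Ddx3y, at most 0.26 FPKM in any female and at least 8.67 FPKM in any male, separated the sexes as labelled. The hepatocyte marker Apoa1 lay between 6677 and 12749 FPKM, as the tissue label implies. Of the targeted genes, Kdm5c averaged 5.11 ± 0.250 FPKM with both sets of vectors, 5.14 ± 0.661 FPKM with the Kdm5 vectors, 7.47 ± 0.483 FPKM with the AhR vector and 6.80 ± 0.410 FPKM with control vectors in males (SD, n = 3 each). The female means in the same order were 10.7 ± 1.60, 9.63 ± 0.503, 12.7 ± 0.564 and 10.3 ± 0.906 FPKM. Levels of the other targets, Kdm5b and Ahr, were not analysed here. Tested markers of other liver cells were 11 of 16 for Kupffer cells and macrophages and 6 of 10 for sinusoidal endothelium, none of them at 0 in any library. The table held 0 of 11 listed markers of neutrophils, 0 of 12 of T and NK cells and 0 of 7 of B cells, so these cells could not be examined. Replicates are separate samples in the labels, which do not say more of how they were kept, so p-values measure the spread between these samples.

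**Figure D1:**
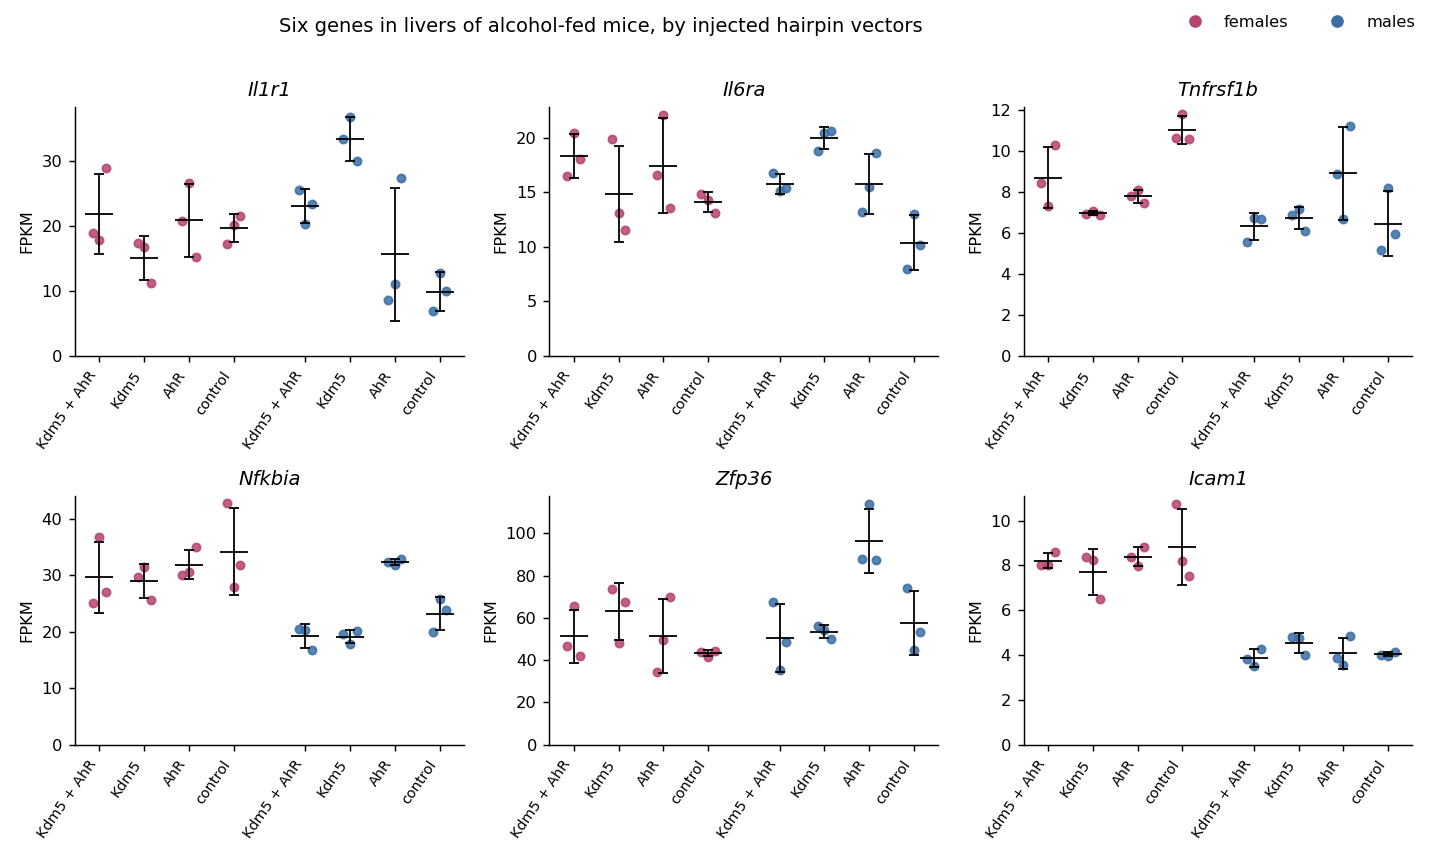
FPKM of the 6 genes in each of 24 livers (points), with the mean and SD of 3 mice per group (bars), for females on the left and males on the right of each panel. The 3 males with the Kdm5 vectors lie at or above 29.9 FPKM of Il1r1, and every female lies above every male for Icam1.

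Il1r1 (gene ID 16177, chromosome 1, 40222480 to 40316201 of GRCm38.p6) encodes the receptor through which interleukin-1 signals. Against male controls it was higher in males with the Kdm5 vectors and in males with both sets of vectors. In females it passed in no vector comparison. In males it measured 25.6, 20.2 and 23.4 FPKM with both sets of vectors, 33.4, 36.7 and 29.9 FPKM with the Kdm5 vectors, 8.52, 11 and 27.4 FPKM with the AhR vector and 6.84, 12.8 and 10.1 FPKM with control vectors. All 6 males given Kdm5 hairpins lay above all 3 male controls, and 1 of the 3 males with the AhR vector stood far above the other two. In females it measured 18.9, 17.8 and 28.9 FPKM with both sets of vectors, 17.3, 16.8 and 11.2 FPKM with the Kdm5 vectors, 20.8, 26.5 and 15.3 FPKM with the AhR vector and 17.2, 20.1 and 21.5 FPKM with control vectors. Each female group with an active vector overlapped the female controls. Among the 8 group means, the highest, that of males with the Kdm5 vectors, was the only one whose range did not overlap that of the next group in the order.

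In males the Kdm5 vectors gave a 3.34-fold higher Il1r1, a log2 fold change of 1.74 ± 0.31 (± is the standard error of a log2 fold change here and below) with an adjusted p of 0.0111 in limma. Both sets of vectors gave 2.33-fold (1.22 ± 0.31, adjusted p = 0.0426). In females the Kdm5 vectors gave -0.38 ± 0.31 (adjusted p = 0.497), and the Kdm5 effect in females minus that in males was -2.13 ± 0.44 (adjusted p = 0.0278), with a 95% confidence interval from -3.05 to -1.20. The Kdm5 effect in males held in 4 of 6 fits that left out 1 library, with log2 fold changes from 1.51 to 1.94. It missed the threshold without control mouse 1 (adjusted p = 0.0614) and without Kdm5 mouse 1 (adjusted p = 0.0532). The effect of both sets of vectors missed it in all 6 such fits, with log2 fold changes from 0.99 to 1.41 and adjusted p from 0.0531 to 0.153. The difference between the sexes passed in 7 of 12, with values from -2.32 to -1.90. It missed the threshold without female control mouse 1 (-2.21), female Kdm5 mouse 3 (-1.93), male control mouse 3 (-2.16), male Kdm5 mouse 1 (-2.12) or male Kdm5 mouse 3 (-2.20).

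Adding the Kdm5 vectors to the AhR vector in males put the log2 fold change of Il1r1 at 0.72 ± 0.31, short of the threshold (adjusted p = 0.245). Male AhR mouse 3, at 27.4 FPKM, decides that call: without it the value was 1.20 ± 0.26 (adjusted p = 0.0154). The same mouse also had the highest Il6ra, Tnfrsf1b, Nfkbia and Icam1 of its group, and the lowest Zfp36. With control vectors Il1r1 was 1.98-fold higher in females than in males (0.99 ± 0.31, adjusted p = 0.0159). With the Kdm5 vectors the order of the sexes was the other way round, at 15.1 ± 3.40 FPKM in females and 33.3 ± 3.40 FPKM in males (SD, n = 3 each), without overlap. The share of all genes without overlap between the sexes under these vectors was not counted.

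Il6ra (gene ID 16194, chromosome 3, 89869324 to 89913196) encodes the binding subunit of the interleukin-6 receptor. Like Il1r1, it rose in males given the Kdm5 vectors, by 1.91-fold. In males it measured 16.8, 15.1 and 15.4 FPKM with both sets of vectors, 18.8, 20.4 and 20.7 FPKM with the Kdm5 vectors, 13.2, 15.5 and 18.6 FPKM with the AhR vector and 8, 13.0 and 10.2 FPKM with control vectors. The 3 male controls were the lowest males, and no male with an active vector overlapped them. In females it measured 16.5, 20.5 and 18.1 FPKM with both sets of vectors, 19.9, 13.1 and 11.6 FPKM with the Kdm5 vectors, 16.6, 22.1 and 13.6 FPKM with the AhR vector and 14.9, 14.3 and 13.1 FPKM with control vectors. Females with the Kdm5 vectors or the AhR vector overlapped their controls, and those with both sets lay above them. In the order of the 8 group means all neighbours overlapped except the last pair, female and male controls.

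The male Kdm5 effect on Il6ra was 0.94 ± 0.19 (adjusted p = 0.0163). It passed in 1 of 6 fits without 1 library, that without control mouse 2, and the other 5 gave log2 fold changes from 0.77 without control mouse 1 to 0.98 without Kdm5 mouse 1. Their adjusted p ran from 0.0530 without control mouse 3 to 0.110; without Kdm5 mouse 2 it was 0.0788 and without Kdm5 mouse 3 0.0805. Fitted on the 6 compared libraries alone, the adjusted p was 0.0546. The AhR vector and both sets of vectors gave male log2 fold changes of 0.59 ± 0.19 and 0.60 ± 0.19, which did not pass (adjusted p = 0.152 and 0.101). In females the Kdm5 vectors gave 0.04 ± 0.19 (adjusted p = 0.938), and the difference of the Kdm5 effects, females minus males, was -0.90 ± 0.27 (adjusted p = 0.0902). That difference passed without female Kdm5 mouse 1, at -1.12 (adjusted p = 0.0311).

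Across the 24 livers, after the mean of each sex was taken off, log2(FPKM + 0.5) of Il1r1 and of Il6ra had a Pearson's r of 0.80, the highest of the 15 pairs of members. The next were 0.48 for Nfkbia with Zfp36 and 0.42 for Tnfrsf1b with Nfkbia, and the lowest was -0.40 for Il1r1 with Zfp36. These values describe the libraries, which share vectors within groups and the scale of each library.

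**Figure D2:**
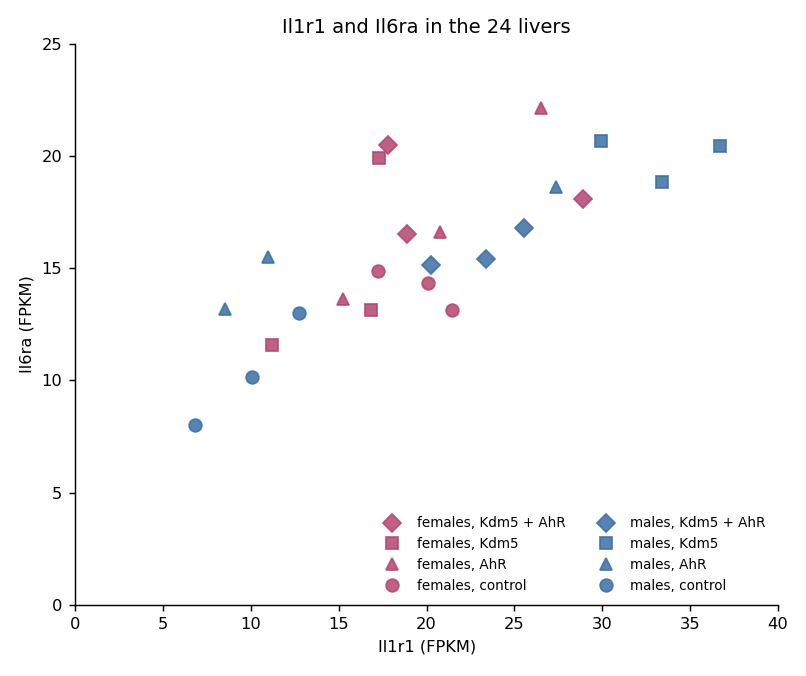
FPKM of Il6ra against FPKM of Il1r1, 1 point per liver, with symbols for the vectors and colours for the sex. The 3 males with the Kdm5 vectors lie at the upper right and the 3 males with control vectors at the lower left, with most females between them.

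Tnfrsf1b (gene ID 21938, chromosome 4, 145212368 to 145246870) encodes TNF receptor 2, which is found mainly on immune and endothelial cells. It fell in females that received the Kdm5 vectors, by 1.54-fold. In females it measured 8.46, 7.34 and 10.3 FPKM with both sets of vectors, 6.95, 7.07 and 6.89 FPKM with the Kdm5 vectors, 7.83, 8.11 and 7.46 FPKM with the AhR vector and 10.7, 11.8 and 10.6 FPKM with control vectors. The 3 female controls lay above all 9 females with an active vector. In males it measured 5.56, 6.73 and 6.69 FPKM with both sets of vectors, 6.91, 7.20 and 6.13 FPKM with the Kdm5 vectors, 8.88, 6.69 and 11.2 FPKM with the AhR vector and 5.2, 8.23 and 5.95 FPKM with control vectors. The male groups overlapped each other. In the order of the 8 group means, female controls were highest, and the only neighbours that did not overlap were females with the AhR vector and females with the Kdm5 vectors.

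The female Kdm5 effect on Tnfrsf1b was -0.62 ± 0.16 (adjusted p = 0.0277). Without 1 library it ranged from -0.65 to -0.58 and passed only without control mouse 2. The adjusted p was 0.0796 without control mouse 1, 0.0505 without control mouse 3, and 0.0682, 0.0692 and 0.0619 without Kdm5 mice 1, 2 and 3. Fitted on the 6 compared libraries alone it was 0.0748. The AhR vector gave -0.47 ± 0.16 in females (adjusted p = 0.225) and 0.43 ± 0.16 in males (adjusted p = 0.211), and the difference of -0.91 ± 0.23 did not pass (adjusted p = 0.0745). It passed without male control mouse 2 (-1.08, adjusted p = 0.0284) and without male AhR mouse 2 (-1.09, adjusted p = 0.0344). The summed FPKM of the 11 Kupffer cell and macrophage markers lay between 474 and 527 in females with the Kdm5 vectors and between 521 and 569 in female controls. None of the 11 passed, 3 of 11 had log2 fold changes above 0, and 2 of the 6 endothelial markers, Gpr182 and Lyve1, were higher. The summed FPKM of the 6 endothelial markers lay between 96.1 and 97.93 with the Kdm5 vectors and between 73.06 and 88.15 in female controls, without overlap. The part of these cells in the result for Tnfrsf1b was not tested.

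Nfkbia (gene ID 18035, chromosome 12, 55489409 to 55492647) encodes I kappa B alpha, which holds NF-kB in the cytoplasm. In males it was lower with both sets of vectors than with the AhR vector alone, by 1.67-fold. In males it measured 20.5, 20.3 and 16.8 FPKM with both sets of vectors, 19.6, 17.8 and 20.1 FPKM with the Kdm5 vectors, 32.3, 31.9 and 32.8 FPKM with the AhR vector and 19.9, 25.8 and 23.9 FPKM with control vectors. The 3 males with the AhR vector lay within 1 FPKM of each other and above the other 9 males. In females it measured 25.1, 36.8 and 27.0 FPKM with both sets of vectors, 29.7, 31.5 and 25.6 FPKM with the Kdm5 vectors, 30.1, 30.6 and 34.9 FPKM with the AhR vector and 42.8, 27.9 and 31.8 FPKM with control vectors. The 4 female groups overlapped each other. Every neighbouring pair in the order of the 8 group means overlapped as well.

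The fall of Nfkbia with the Kdm5 vectors added to the AhR vector in males was -0.74 ± 0.15 (adjusted p = 0.00804). It passed in 5 of 6 fits without 1 library, and without mouse 3 of the males with both sets it was -0.65 (adjusted p = 0.0561). The AhR vector against control vectors gave 0.48 ± 0.15 in males, which did not pass (adjusted p = 0.146), and -0.08 ± 0.15 in females (adjusted p = 0.890). Both sets against control vectors gave -0.26 ± 0.15 in males (adjusted p = 0.449). Nfkbia was higher in females than in males with control vectors, by 1.45-fold (0.53 ± 0.15, adjusted p = 0.00754). Without female control mouse 1, the highest at 42.8 FPKM, that value was 0.36 (adjusted p = 0.0648), and fitted on the control libraries alone the adjusted p was 0.0625. With the AhR vector the sexes overlapped, at 31.9 ± 2.63 FPKM in females and 32.3 ± 0.471 FPKM in males (SD, n = 3 each).

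Zfp36 (gene ID 22695, chromosome 7, 28376784 to 28379228), which encodes the mRNA decay factor tristetraprolin, had the highest FPKM of the 6 genes in every group. Like Nfkbia it was lower in males with both sets of vectors than with the AhR vector alone, by 1.95-fold. In males it measured 67.4, 35.6 and 48.6 FPKM with both sets of vectors, 56.1, 54.1 and 50.2 FPKM with the Kdm5 vectors, 88.0, 114 and 87.2 FPKM with the AhR vector and 74.2, 44.8 and 53.4 FPKM with control vectors. The 3 males with the AhR vector were the highest of all 24 mice. In females it measured 46.7, 65.5 and 41.8 FPKM with both sets of vectors, 73.7, 48.0 and 67.7 FPKM with the Kdm5 vectors, 34.6, 49.7 and 69.7 FPKM with the AhR vector and 43.7, 41.7 and 44.3 FPKM with control vectors. Females with the Kdm5 vectors lay above their controls without overlap, and the other females overlapped them. In the order of the 8 group means, males with the AhR vector were the only group clear of its neighbour.

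The Kdm5 vectors added to the AhR vector changed Zfp36 in males by -0.96 ± 0.25 (adjusted p = 0.0343). The value passed in 1 of 6 fits without 1 library, that without mouse 1 of the males with both sets, and ranged from -1.19 to -0.73. The adjusted p was 0.0586, 0.145 and 0.0648 without AhR mice 1, 2 and 3, and 0.171 and 0.121 without mice 2 and 3 of the males with both sets. It was 0.0528 after median-of-ratios scaling and 0.123 in a fit of the compared libraries alone. The AhR vector against control vectors gave 0.76 ± 0.25 in males (adjusted p = 0.152) and 0.19 ± 0.25 in females (adjusted p = 0.821), neither of which passed. In females the Kdm5 vectors gave 0.52 ± 0.25, which did not pass (adjusted p = 0.212).

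Icam1 (gene ID 15894, chromosome 9, 21015940 to 21028814) encodes an adhesion molecule by which leukocytes bind endothelium and hepatocytes. It was higher in every female than in every male, and no vector changed it past the threshold. In females it measured 8.01, 8.02 and 8.61 FPKM with both sets of vectors, 8.36, 8.23 and 6.51 FPKM with the Kdm5 vectors, 8.39, 7.98 and 8.83 FPKM with the AhR vector and 10.8, 8.22 and 7.54 FPKM with control vectors. In males it measured 3.83, 3.50 and 4.28 FPKM with both sets of vectors, 4.82, 4.75 and 4.02 FPKM with the Kdm5 vectors, 3.85, 3.54 and 4.85 FPKM with the AhR vector and 3.99, 3.98 and 4.16 FPKM with control vectors. The lowest female, at 6.51 FPKM, stood above the highest male, at 4.85 FPKM, and groups of the same sex overlapped. Averaged over the vector settings, Icam1 was 1.90-fold higher in females (0.92 ± 0.07, adjusted p = 2.40e-10). The vector effects on Icam1 in either sex lay between -0.20 and 0.14 on the log2 scale. Their 95% confidence intervals reached at most from -0.48 to 0.42.

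**Figure D3:**
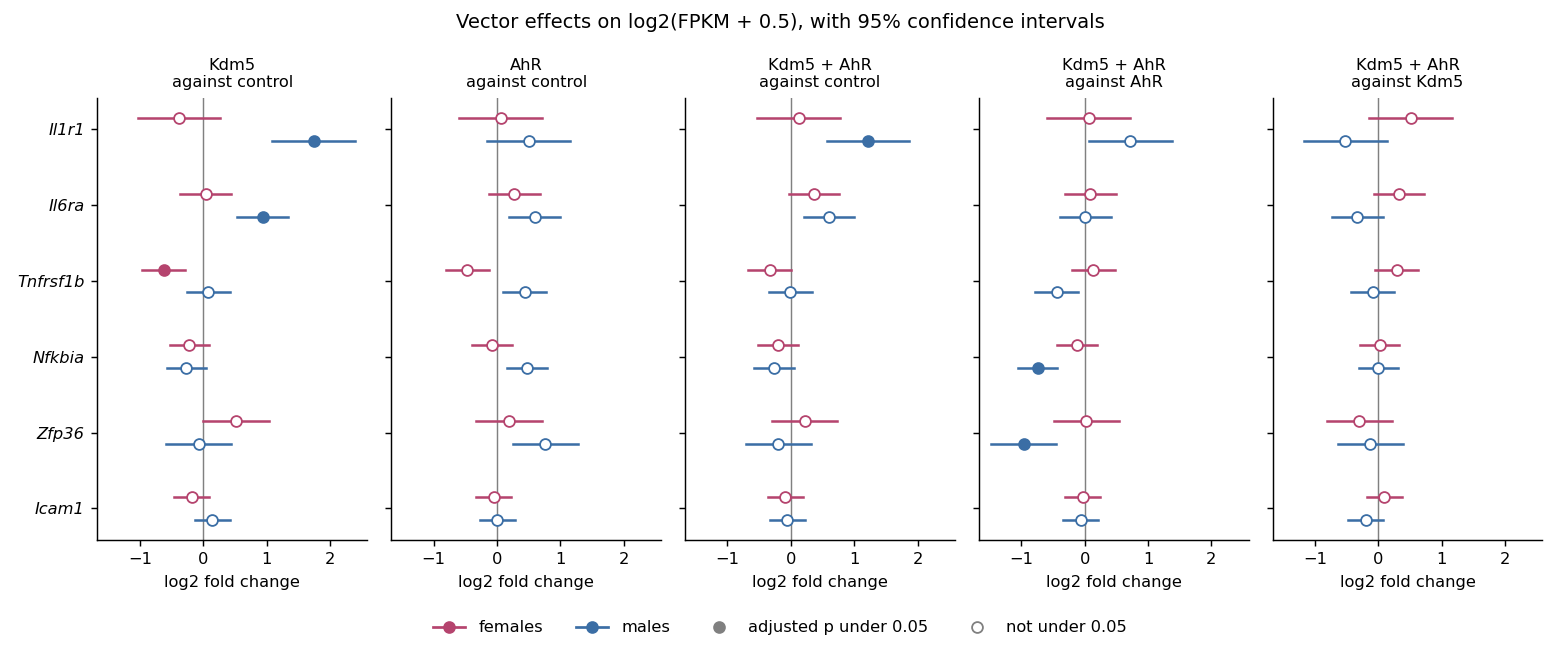
Log2 fold changes of the 6 genes on the log2(FPKM + 0.5) scale, with 95% confidence intervals from limma, for 5 vector comparisons in females and males; filled points have an adjusted p under 0.05. In males Il1r1 lies at 1.74 under the Kdm5 vectors and Nfkbia and Zfp36 lie at -0.74 and -0.96 where the Kdm5 vectors were added to the AhR vector, while the female intervals for the same gene and comparison include 0.

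In males given the Kdm5 vectors alone, 2 of the 6 genes passed, both receptors and both higher, where 1.22% of the 2299 genes passed in either direction and 1.04% were higher. The table held only part of each gene list, and the rest could not be examined. It held 6 of 26 listed interleukin-1 genes, 8 of 22 interleukin-6 genes, 2 of 27 TNF genes and 3 of 21 NF-kB subunit genes. It also held 11 of 39 NF-kB targets, 3 of 19 mRNA decay genes and 6 of 18 adhesion genes. Acute phase genes were 16 of 28, immediate early genes 6 of 22 and glucocorticoid-responsive genes 25 of 30. In these males 1 of 6 tested genes of interleukin-1 receptors and signalling rose, Il1r1 itself. Of 8 tested genes of interleukin-6 receptors and JAK-STAT3 signalling, 1 rose, Il6ra. None of 16 acute phase genes, which those receptors drive in hepatocytes, passed (limma), and their median log2 fold change was 0.26 beside 0.01 over all genes tested. None of 11 NF-kB target genes and none of 6 genes of leukocyte adhesion passed either, with medians of -0.03 and 0.04. Of 3 tested genes of AU-rich element binding and mRNA decay, 1 fell, Pnrc1, a nuclear receptor coactivator linked to mRNA decapping, at -0.38 ± 0.09 (adjusted p = 0.0488).

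Il1r1, Il6ra, Nfkbia and Zfp36 also stand in a list of glucocorticoid-responsive genes, of which 25 were tested. The list, like the others, was chosen with earlier results of these data known. Its counts here and below include these 4 members, so they are not independent of the results on the members. In males with the Kdm5 vectors 4 of the 25 rose and none fell, with a median of 0.39. They were Il1r1, Il6ra, Lpin1, a phosphatidate phosphatase, at 6.30-fold, and Zbtb16, a zinc finger transcription factor. Zbtb16 averaged 11 ± 1.34 FPKM in males with the Kdm5 vectors and 1.56 ± 1.01 FPKM in male controls (SD, n = 3 each). The summed FPKM of 11 Kupffer cell and macrophage markers lay between 236 and 268 with the Kdm5 vectors and between 247 and 354 in male controls. None of the 11 passed, 1 of them lay above 0, and their part in the results for Il1r1 and Il6ra was not tested.

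With both sets of vectors, 1 of the 6 genes passed in males, Il1r1, where 2.35% of all genes passed. Of the 6 interleukin-1 genes 2 rose, Il1r1 and Il18, which encodes the cytokine interleukin-18. Il18 averaged 7.64 ± 0.305 FPKM with both sets and 4.85 ± 0.621 FPKM in controls (SD, n = 3 each), a log2 fold change of 0.61 ± 0.15 (adjusted p = 0.0389). Map3k5, a kinase that acts downstream of TNF receptors and 1 of 2 tested genes of TNF signalling, rose 1.58-fold (adjusted p = 0.0208). Of the glucocorticoid-responsive genes, Lpin1 (4.71-fold, adjusted p = 0.0218) and Il1r1 rose and none of 25 fell.

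In males with both sets of vectors, 2 of the 6 genes were lower than with the AhR vector alone, Nfkbia and Zfp36, where 3.26% of all genes passed and 2.35% were lower. Of 8 interleukin-6 signalling genes 3 fell in the same comparison, with a median of -0.16 over the 8. They were the STAT3-induced kinase Pim3 (2.48-fold, adjusted p = 0.00468) and the acute phase transcription factors Cebpb (2.13-fold, adjusted p = 0.00804) and Cebpd (2.12-fold, adjusted p = 0.0383). Cebpb, for example, averaged 60.5 ± 10.7 FPKM with both sets and 129 ± 17.9 FPKM with the AhR vector (SD, n = 3 each). Of 11 NF-kB target genes the 2 members fell and none rose, with a median of -0.26 beside -0.08 over all genes, and of 6 immediate early genes Zfp36 alone fell. Of 25 glucocorticoid-responsive genes 9 fell and 2 rose. Their median was -0.34. Bcl6, a transcriptional repressor, had the lowest adjusted p of them and fell 9.80-fold, to 2.09 ± 0.165 FPKM with both sets, against 25.9 ± 8.36 FPKM with the AhR vector (SD, n = 3 each). Mt1, a metallothionein gene, was the only 1 of 16 acute phase genes that passed, and it rose 2.19-fold (adjusted p = 0.0383). Map3k5 rose 1.72-fold (adjusted p = 0.00468). The summed FPKM of the 11 macrophage markers lay between 246 and 373 with both sets and between 311 and 429 with the AhR vector. None of the 11 passed, 2 lay above 0, and their part in the results for Nfkbia and Zfp36 was not tested.

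The AhR vector alone moved none of the 6 genes past the threshold in males in limma, where 1.09% of all genes passed. An unadjusted p under 0.05 was found for 4 of the 6, namely Il6ra, Tnfrsf1b, Nfkbia and Zfp36, each with a log2 fold change above 0, and for 13.9% of all genes. The median of the 6 was 0.49 beside 0.07 over all genes. The 6 immediate early genes had log2 fold changes above 0, with a median of 0.48, and none passed. Of the 25 glucocorticoid-responsive genes, Per1, Arrdc2, Pim3 and Bcl6 rose and none fell, named here after their values were seen. Adding the AhR vector to the Kdm5 vectors in males moved none of the 6 genes past the threshold, where 0.913% of all genes passed, and 0 had an unadjusted p under 0.05, where 16.5% of all genes had one. The interaction of the vectors in males asks whether the Kdm5 effect differs between mice with and without the AhR vector. It lay below 0 for all 6 genes, with a median of -0.71 beside -0.08 over all genes. It ran from -1.02 for Il1r1 to -0.20 for Icam1. None passed in limma, where 1.61% of all genes did. All but Icam1, 5 of the 6, had an unadjusted p under 0.05, as did 12.8% of all genes. The lowest adjusted p among them was 0.0954, for Il6ra (-0.92 ± 0.27). The AhR effect and the interaction share the male AhR and control libraries, and the AhR vector added to the Kdm5 vectors shares its libraries with the interaction, so they are not independent of each other.

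In females, Tnfrsf1b was the only 1 of the 6 genes to pass under the Kdm5 vectors, where 6.87% of all genes passed and 3.48% were lower. Il22ra1, a receptor subunit for interleukin-22, which protects hepatocytes and acts through STAT3, fell 1.78-fold (adjusted p = 0.0332) and was the only 1 of 8 interleukin-6 family genes to pass. It averaged 3.52 ± 0.569 FPKM with the Kdm5 vectors and 6.65 ± 0.923 FPKM in controls (SD, n = 3 each). Of 16 acute phase genes Crp, which encodes C-reactive protein, fell 1.45-fold (adjusted p = 0.0174) and none rose. Of 25 glucocorticoid-responsive genes Irs2, an insulin receptor substrate, rose 2.28-fold (adjusted p = 0.00826) and none fell, and their median was -0.16 beside -0.02 over all genes.

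The other vector comparisons in females moved none of the 6 genes past the threshold in limma. Under the AhR vector 0.217% of all genes passed, and 1 of the 6 genes, Tnfrsf1b, had an unadjusted p under 0.05, beside 12.9% of all genes. Under both sets of vectors 11.6% of all genes passed, and none of the 6 had an unadjusted p under 0.05, beside 29.9% of all genes. None of the 6 had one when the Kdm5 vectors were added to the AhR vector, where 0.696% of all genes passed and 15.4% had an unadjusted p under 0.05. None had one when the AhR vector was added to the Kdm5 vectors either, where 2.09% of all genes passed and 21.6% lay under 0.05 before adjustment. In the interaction of the vectors in females 1 of the 6 had one, Tnfrsf1b at 0.76 ± 0.23 (adjusted p = 0.158), where 0.609% of all genes passed and 10.2% had an unadjusted p under 0.05. For Nfkbia the Kdm5 vectors added to the AhR vector gave -0.12 ± 0.15 in females, with a 95% confidence interval from -0.43 to 0.19, and for Zfp36 they gave 0.03 ± 0.25, with an interval from -0.49 to 0.54.

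The Kdm5 effects in females and males differed for 1 of the 6 genes, Il1r1, where 1.74% of all genes differed. Lpin1 (-3.66 ± 0.71, adjusted p = 0.0210) differed the same way and Irs2 (1.39 ± 0.33, adjusted p = 0.0385) the other way, among the 25 glucocorticoid-responsive genes, of which 1 had the higher effect in females and 3 had it in males, the third being Ppargc1a, a transcriptional coactivator. Pnrc1 had the higher effect in females, by 0.51 ± 0.13 (adjusted p = 0.0488). The differences of the AhR effects lay below 0 for all 6 genes and passed for none in limma, where 0.565% of all genes passed. Their median was -0.50 beside -0.09 over all genes. An unadjusted p under 0.05 was found for 2 of the 6, Tnfrsf1b and Nfkbia, and for 13.8% of all genes. Those of the effects of both sets passed for none of the 6 either, where 5.92% of all genes passed. An unadjusted p under 0.05 was found for 1 of the 6, Il1r1 at -1.09 ± 0.44, and for 27.4% of all genes.

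With control vectors, 4 of the 6 genes were higher in females than in males, where 42.5% of all genes passed and 30.8% were higher in females. They were Il1r1, Tnfrsf1b (1.68-fold, 0.75 ± 0.16, adjusted p = 0.00103), Nfkbia and Icam1 (2.03-fold, 1.02 ± 0.13, adjusted p = 5.35e-06). Tnfrsf1b and Icam1 passed in all 6 fits without 1 library. Il1r1 missed the threshold without female control mouse 3 (0.92, adjusted p = 0.0517) and without male control mouse 1 (0.76, adjusted p = 0.0824). Il6ra, at 0.45 ± 0.19, did not pass (adjusted p = 0.0648) but did without male control mouse 2 (0.62, adjusted p = 0.0223). Zfp36 was the only member with a log2 fold change below 0, at -0.37 ± 0.25 (adjusted p = 0.229). The median of all genes was 0.15 in this comparison. After median-of-ratios scaling it moved by -0.15, and the 4 genes still passed, with Il1r1 at 0.83, Tnfrsf1b at 0.60, Nfkbia at 0.38 and Icam1 at 0.88.

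Averaged over the 4 vector settings, 3 of the 6 genes were higher in females, where 62.3% of all genes passed and 42.9% were higher. They were Icam1, Nfkbia (1.34-fold, adjusted p = 4.94e-05) and Tnfrsf1b (1.20-fold, adjusted p = 0.00733). Scaling moved the median of all genes by -0.12 here. After it Tnfrsf1b did not pass (0.15, adjusted p = 0.0959) and Zfp36 was lower in females (-0.39, adjusted p = 0.00781), where as deposited it was -0.27 ± 0.12 (adjusted p = 0.0679). Il1r1 and Il6ra, at 0.07 ± 0.16 and 0.08 ± 0.10 as deposited, changed sign on scaling and passed in neither case. Icam1 alone of the 6 genes separated all 12 females from all 12 males, where 13.4% of all genes did so in either direction and 9.00% with females higher.

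The 12 females had a median Icam1 of 8.23 FPKM, between 6.51 and 10.8 FPKM, and the 12 males one of 4.01 FPKM, between 3.50 and 4.85 FPKM. For Nfkbia the medians were 30.4 FPKM in females, between 25.1 and 42.8 FPKM, and 20.4 FPKM in males, between 16.8 and 32.8 FPKM, with the males given the AhR vector among the females. The ratio of female to male mean FPKM was highest for Icam1 with control vectors, at 2.19, and lowest for Il1r1 with the Kdm5 vectors, at 0.453. For Zfp36 it was 0.533 with the AhR vector and 1.18 with the Kdm5 vectors.

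**Figure D4:**
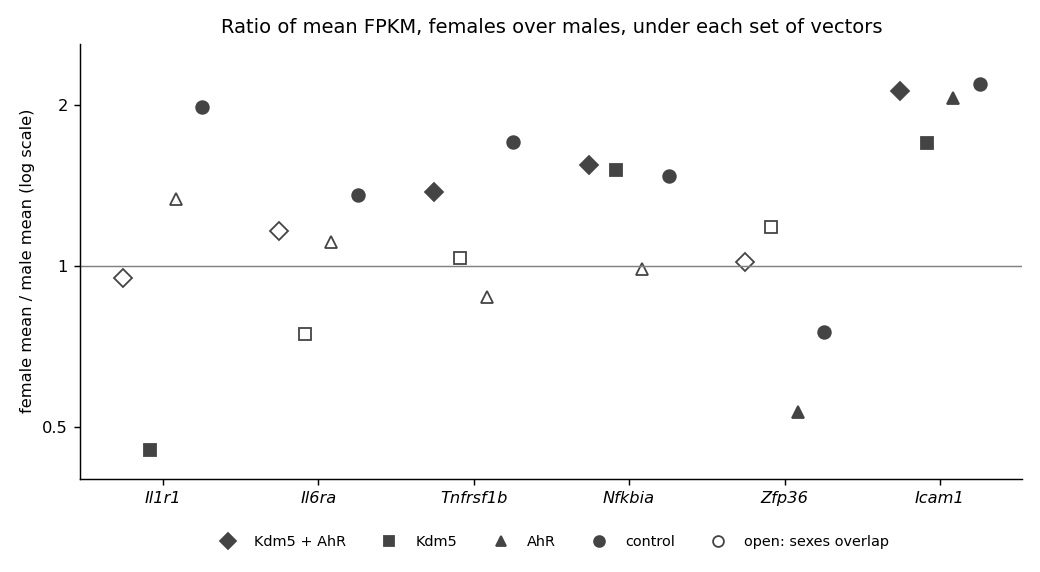
Ratio of mean FPKM in females to that in males (log axis) for the 6 genes under each set of vectors, with open symbols where the 3 females and 3 males overlap. The share of all genes without such overlap was not counted. Icam1 lies between 1.70 and 2.19 under every set, and Il1r1 between 0.453 with the Kdm5 vectors and 1.98 with control vectors.

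Of all genes, 30.8% were higher in females with control vectors, and the median of all genes was 0.15. The list counts here stand beside that share and include the members that belong to each list. Those of the interleukin-1, interleukin-6 and NF-kB subunit lists were near or below it. All 6 tested genes of leukocyte adhesion, of 18 listed, passed with females higher, with a median of 0.92. They include Vcam1, an adhesion molecule of activated endothelium (2.23-fold, adjusted p = 0.000225), and Msn, which links such molecules to the cell cortex (1.89-fold, adjusted p = 0.000252). Of 11 NF-kB target genes 6 were higher and none lower, with a median of 0.58, and of 3 genes of NF-kB subunits, kinases and inhibitors Nfkbia alone passed. Of 25 glucocorticoid-responsive genes 11 were higher and none lower, with a median of 0.53. Of 16 acute phase genes 12 were higher and none lower, with a median of 1.08. Among them were Itih4, an inter-alpha-trypsin inhibitor heavy chain (1.82-fold), complement C3 (1.55-fold) and Lbp, which binds bacterial lipopolysaccharide (1.42-fold). Of the 6 interleukin-1 genes Il18 (2.06-fold) and Il1r1 were higher, while Il1rap, which encodes the accessory protein that pairs with the Il1r1 product, was lower in females (1.41-fold, adjusted p = 0.00151). Of 6 immediate early genes Nr4a1, Gadd45b and Klf6 were higher, and of 8 interleukin-6 genes Il22ra1 (1.79-fold).

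Marker genes of non-parenchymal cells differed between the sexes as well. With control vectors 10 of 11 Kupffer cell and macrophage markers, 3 of 6 sinusoidal endothelial markers and 4 of 5 stellate cell markers were higher in females, and none of these was lower. Of 6 hepatocyte markers 1 was higher and 3 were lower, and the only cholangiocyte marker tested, Sox9, was lower. The summed FPKM of the 11 macrophage markers lay between 453 and 629 in the 12 females and between 236 and 429 in the 12 males, without overlap. That of the 6 endothelial markers lay between 73.1 and 111 in females and between 48.3 and 66.8 in males. None of these markers was at 0 in any library. Their part in the female excess of Icam1, Tnfrsf1b and Nfkbia was not tested.

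By Pearson's r over the 24 livers on log2(FPKM + 0.5), with the mean of each sex taken off, the genes most like Il1r1 were Zbtb16 (0.95), Lpin1 (0.91) and Arhgef26 (0.90). For Zbtb16 the value was 0.86 in the 12 females and 0.98 in the 12 males. Arhgef26 (0.87), Rnf169 (0.83) and Susd6 (0.82) were most like Il6ra, and Ptgds (0.77), Abcg5 (0.76) and Slc38a2 (0.75) most like Tnfrsf1b. For Nfkbia they were Arl4d (0.82), Nrp1 (0.78) and the targeted gene Kdm5c (0.77), the last with 0.53 in the 12 females and 0.88 in the 12 males. For Zfp36 they were Pim3 (0.83), Arl4d (0.77) and Irf2bp2 (0.74). Icam1 had no gene as close, the first being Skil (0.69), Eppk1 (0.63) and Psmc2 (0.61). Arl4d, close to both Nfkbia and Zfp36, averaged 8.64 ± 1.19 FPKM with both sets of vectors, 10.9 ± 2.54 FPKM with the Kdm5 vectors, 34.7 ± 8.64 FPKM with the AhR vector and 16.4 ± 1.27 FPKM with control vectors in males (SD, n = 3 each). These values describe which genes share a pattern over these libraries.

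**Figure D5:**
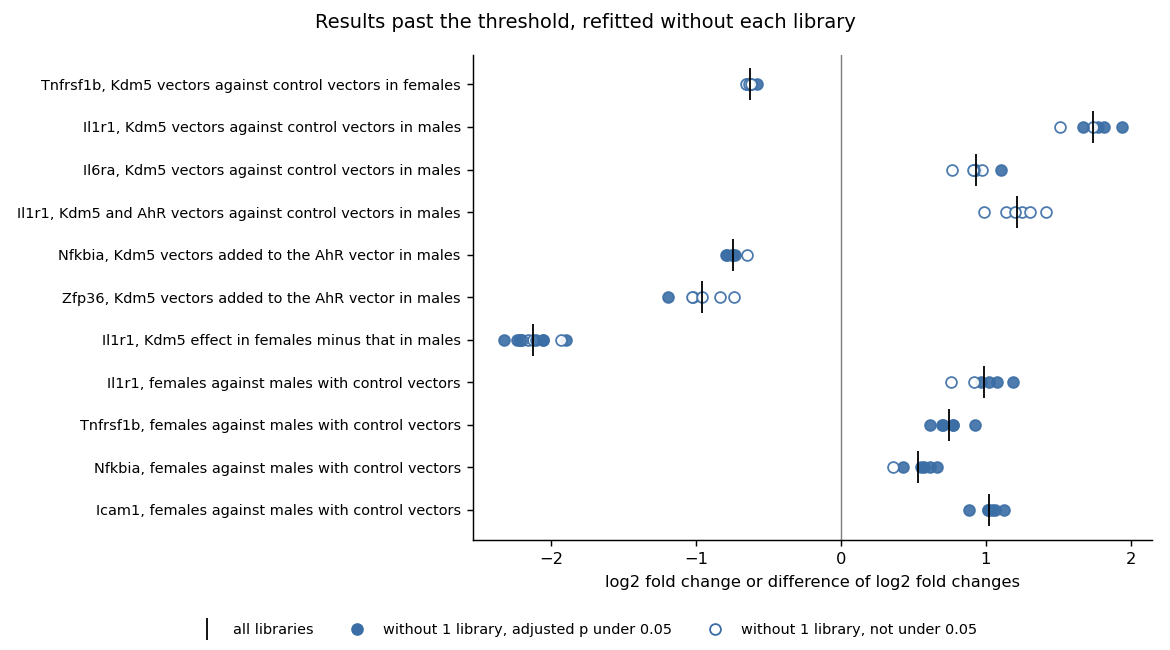
Log2 fold changes, or differences of them, for 11 results on single genes that passed with all libraries (bars), refitted without each library in turn (circles, filled where the adjusted p stayed under 0.05). Every circle keeps the sign of its bar; those of Icam1 and Tnfrsf1b between female and male controls are all filled, and those of Il1r1 for both sets of vectors in males are all open.

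Some fragments counted for these genes may belong to others. In the GENCODE M21 annotation of GRCm38, Il6ra, Zfp36 and Icam1 each overlap an antisense transcript and Il1r1 overlaps a transcript of unproven status on its own strand, while Tnfrsf1b and Nfkbia overlap no other gene. Whether strand was used in counting is not given in the sources used here, so fragments of such partners cannot be told apart.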

How the data were processed

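RNA from 24 livers, 1 mouse each, was sequenced, in 8 groups of 3 set by the labels. The authors deposited FPKM per gene, per the file headers, in 1 table whose name speaks of raw counts. HISAT, Bowtie2 and the build GRCm38.p6 are named in the submitters' processing notes, and the counting step, strand setting and annotation do not appear in the sources used here. Read depth is therefore unknown and no counting interval is given.

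Genes that reached 1 FPKM in 3 or more libraries were kept (2299 of 2372, with 73 left out). Values were taken as log2(FPKM + 0.5), so fold changes of low genes are understated. The 8 group means were fitted together in limma 3.58.1 (R 4.3.3) with a mean-variance trend and robust moderation, leaving 16 residual degrees of freedom. For 17 comparisons, p-values are two-sided and adjusted by Benjamini-Hochberg over the 2299 genes, with a threshold of 0.05. Steps were tested on simulated data. The alternatives were no filter, a filter of 1 FPKM in 12 libraries, pseudocounts of 0.1 and 1, median-of-ratios scaling, library weights, moderation without trend and robustness, a fit of the compared groups alone, and each library left out.

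The 6 members and the gene lists were chosen with earlier results of these data known. Besides the members, the text names at most 3 genes per list and comparison by adjusted p where a member passed, and the 3 genes most like each member. Others, among them Per1, Arrdc2, Ppargc1a, Zbtb16, Gpr182, Lyve1 and Sox9, were named after their values were seen. A planned search of protein sequences was not run. Promoters were matched by symbol to RefSeq, and gene overlaps were read from GENCODE M21.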

Additional observations from a re-analysis of the deposited data

Results flagged for a closer look

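Il1r1 is listed because the effect of the Kdm5 vectors differed between the sexes in a test of the difference itself. The log2 fold change against control vectors was -0.38 ± 0.31 in females and 1.74 ± 0.31 in males, a difference of -2.13 ± 0.44 (adjusted p = 0.0278, limma, n = 3 mice per group). All 3 males with the Kdm5 vectors lay above all 3 male controls, and 2 of the 3 females with the Kdm5 vectors lay below all 3 female controls. No cause of the difference was tested.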

How the results depend on the processing

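Of the results on single genes, 1666 values under an alternative kept their side of the threshold, 39 kept their direction and no longer passed, 11 kept it and newly passed, and none that passed changed sign. The number of members that passed changed in 5 comparisons under alternatives other than leaving out a library. A fit of the compared groups alone gave 0 in place of 1 for the Kdm5 vectors in females, 1 in place of 2 for the Kdm5 vectors in males, 1 in place of 2 for the Kdm5 vectors added to the AhR vector in males, and 3 in place of 4 for females against males with control vectors. A pseudocount of 1 gave 0 in place of 1 for both sets of vectors in males, where Il1r1 had 1.18 (adjusted p = 0.0502). Median-of-ratios scaling gave 1 in place of 2 for the Kdm5 vectors added to the AhR vector in males. Library weights added Il1r1 there (0.99, adjusted p = 0.0235). With each library left out in turn, the number ranged from 0 to 1 for the Kdm5 vectors in females, from 0 to 2 in males, was 0 throughout for both sets in males, and ranged from 0 to 2 for the Kdm5 vectors added to the AhR vector in males. It ranged from 0 to 2 for the difference of the Kdm5 effects between the sexes from 0 to 1 for that of the AhR effects, from 3 to 5 for females against males with control vectors and from 3 to 4 for females against males averaged over the vector settings. A fit with fewer libraries estimates the spread from fewer mice, and the cause of the other changes was not tested. Depth and batches are unknown. No paired analysis was possible because the labels give no replicate numbers that link mice of different groups.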
